A study of Mus musculus with 21 samples.

Results

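The genes described here are the 75 of 24623 rows of the table whose symbol is that of a cytoplasmic ribosomal protein by a pattern (Rpl or Rps with a number and an optional a or x, or Rplp0 to Rplp2). Of these, 46 encode proteins of the large subunit and 29 of the small subunit. The pattern leaves out rows named as pseudogenes and some other genes of ribosomal proteins, of which Rpsa, Rps3a1, Fau and Rpl36al are given below as context. All 75 passed the filter on low values.

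The cytoplasmic ribosome is built from ribosomal RNA and a fixed set of ribosomal proteins, most of them in a single copy per ribosome. Cells hold their messenger RNAs at high levels. Most of these messages begin with a run of pyrimidines, the 5′ terminal oligopyrimidine tract, through which mTOR signalling and LARP1 control their translation. Several members have roles off the ribosome. Rpl5 and Rpl11 bind the MDM2 protein, Rps6 is the substrate of S6 kinases, and Rps27a is made as a fusion with ubiquitin.

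The RNA came from 2 mouse pancreatic tumour clones, 6694c2 and 6419c5. Their cells had grown for 3 weeks under the skin of C57BL/6 mice and were then sorted from the tumours; the labels do not give the age of the mice or how the cells were sorted. In 6694c2 there were 4 libraries each of the lines KOA and KOB, both labelled EPHA2-KO, and 4 of the parental line, called WT. In 6419c5 there were 3 libraries each of KOA, KOB and WT. EPHA2 is a receptor tyrosine kinase for ephrins. The labels do not say how the KO lines were edited or whether each is 1 cell clone, and a shared letter ties no line of 6694c2 to one of 6419c5. No group was treated.

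The values were TPM, a measure of transcript abundance per length and relative to all transcripts of the library, so the number of reads behind each library is unknown. Epha2 itself ranged from 92.1 to 130 TPM in KOA and from 88.0 to 113 in KOB, against 240 to 252 in WT of 6694c2. In 6419c5 it ranged from 144 to 156 TPM in KOA and from 170 to 221 in KOB, against 164 to 190 in WT, so the KOB libraries there do not show a lower Epha2 transcript. Of the 6 epithelial markers, Krt8 and Krt18 were above 1900 TPM in every library, Krt19 ranged from 771 to 4694 TPM, Cdh1 from 176 to 635, and Krt7 from 33.3 to 1622. Epcam was detected in every library, and was lowest in libraries 3 and 4 of 6694c2 KOA (1.07 and 0.864 TPM), against 53.0 and 10.8 TPM in libraries 1 and 2 of that line and 10.2 to 13.9 TPM in WT. Markers of other cells were also detected. The 8 leukocyte markers summed to between 35.7 and 617 TPM per library in 6694c2, and to between 90.1 and 1707 TPM in 6419c5. Cd3e was at 0 in 6 of 21 libraries, while Lyz2 and Ptprc were at 0 in none. The row Mir6236 took 14.5% of all TPM in library 4 of 6694c2 KOB and 9.11% in library 3 of 6419c5 WT, against 2.27 to 5.45% in the other 19 libraries.

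Sequence after the annotated start of the message is shown first for the members on chromosome X and chromosome 10. The members of each moved together in 6694c2 KOB. Each line gives 30 bases of the gene's strand around the longest pyrimidine run that begins with C within 50 bases of the annotated start, from RefSeq on GRCm38.p6. The run is in capitals.
Rps4x, chrX:102189345-102189374, minus strand: gcgcgcgcagCCTCCgaccctaatttcttc
Rpl10, chrX:74270836-74270865, plus strand: cgtgagcaggcgtgggagcgtCTCTTTTCC
Rpl39, chrX:37085173-37085202, minus strand: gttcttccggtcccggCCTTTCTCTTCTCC
Rpl36a, chrX:134585671-134585700, plus strand: gcggctctagCCTCTCTCTTTCCgagctgc
Rps12, chr10:23787182-23787211, minus strand: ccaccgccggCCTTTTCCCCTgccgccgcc
Rps15, chr10:80292446-80292475, plus strand: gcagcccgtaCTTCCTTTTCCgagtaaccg
Rps26, chr10:128626483-128626512, minus strand: gccgccggatCCTCTTTCgagtcttggctc
Rpl41, chr10:128549119-128549148, minus strand: cgccattaaatagcagtaggCCTCCCTCTC
The runs of Rpl10, Rpl39 and Rpl41 reach the end of the window held in the table and may be longer. Both chromosome groups carry such runs, and Rps4x has the shortest, of 5 bases. In the order shown, the runs begin 27, 41, 36, 27, 8, 25, 4 and 40 bases after the annotated start. They are thus not at the annotated first base, and whether a message begins with one was not tested.

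The table of windows around gene starts, each of 300 bases, held 65 windows for 55 of the members. A run of C and at least 7 more pyrimidines on the gene's strand, within 50 bases of the annotated start, was found in 83.1% of these windows and in 28.8% of all 32851 windows. CCGGAAG, on either strand of the whole window, was found in 35.4% of members' windows and in 8.86% of all. AAGATGGC, searched likewise, was found in 10.8% and 2.75%. A match describes the letters of a window and says nothing about a factor.

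The members were among the most abundant messages of these cells. Mean levels over all libraries ran from 89.3 TPM (Rps15a) to 7243 TPM (Rplp1), with a median of 2090, and 63 of the 75 were at 1000 TPM or more. Rplp1, a protein of the large subunit's stalk, was followed by Rps27 (6474 TPM), Rpl41 (6090), Rps2 (5688) and Rps18 (5291). The 5 members under 300 TPM were Rps15a, Rpl30 (145), Rpl26 (151), Rpl22 (243) and Rps20 (273). For Rpl26 and Rpl30 a near-identical row held most of the signal, as described at the end.

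The summed share of the 75 members was lower in the KO lines than in WT by the means of 3 of 4 comparisons, and the libraries overlapped in each except KOB of 6419c5. In 6694c2 the members summed to 19.3%, 21.4%, 17.3% and 17.7% of all TPM in KOA and to 22.4%, 21.3%, 21.9% and 19.1% in KOB, against 19.7%, 19.4%, 20.7% and 19.9% in WT. The means were 18.9 ± 1.85% in KOA and 21.2 ± 1.46% in KOB, against 19.9 ± 0.564% in WT (SD, n = 4 each). In KOA 3 of 4 libraries were below every WT library, and 3 of 4 KOB libraries were above every WT library.

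In 6419c5 the members summed to 17.5%, 16.7% and 15.8% in KOA and to 15.6%, 14.9% and 15.8% in KOB, against 20.7%, 18.7% and 15.9% in WT. The means were 16.7 ± 0.863% in KOA and 15.4 ± 0.513% in KOB, against 18.4 ± 2.41% in WT (SD, n = 3 each). The lowest WT library was the one of high Mir6236 and was above all 3 KOB libraries. Without Mir6236 in the total the WT libraries were at 21.7%, 19.5% and 17.5%, so library 3 was still the lowest. The KOB libraries were then at 16.1%, 15.3% and 16.3%. The difference of KOA from WT was −1.76 percentage points, or −3.03 without WT library 3 and −0.631 without WT library 1. The difference of KOB from WT was −2.97 points, or −4.24 and −1.84 without the same libraries. No test was made of a sum over members.

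Markers of other cells also differed between libraries and lines, without a common direction relative to the share. In 6694c2 KOA the libraries of low share, 3 and 4, had 326 and 364 TPM of leukocyte markers and 494 and 630 TPM of the 6 fibroblast markers, while libraries 1 and 2 had 92.5 and 124 TPM and 479 and 148 TPM. Libraries 3 and 4 also had 17.4 and 17.8 TPM of endothelial markers and 6185 and 6401 TPM of epithelial markers, while libraries 1 and 2 had 6.25 and 4.54 TPM and 8576 and 8369 TPM. In 6694c2 KOB the fibroblast markers summed to 51.1 to 87.7 TPM, against 174 to 267 in WT, and the leukocyte markers to 35.7 to 126 TPM, against 82.8 to 617 in WT. The erythroid markers there summed to 97.9 to 314 TPM in KOB and 46.0 to 211 in KOA, against 6.35 to 96.6 in WT. In 6419c5 the epithelial markers summed to 13855 to 15360 TPM in KOA and 12258 to 16318 in KOB, against 5647 to 7562 in WT. The leukocyte markers summed to 90.1 to 1707 TPM in KOA and 96.6 to 171 in KOB, against 539 to 1278 in WT there. The fibroblast markers summed to 482 to 588 TPM in KOA and 1203 to 1763 in KOB, against 923 to 1852 in WT. Within WT they were at 923, 1140 and 1852 TPM in libraries 1, 2 and 3, whose share fell in that order. Within KOB the library of lowest share, library 2, had the lowest sum, 1203 TPM. The part of these in the summed share was not tested, and fewer cells of a type cannot be told apart from less RNA per cell.

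The balance of the subunits was more even within lines than the sum. In 6694c2 the large over small ratio of summed TPM was 1.31, 1.28, 1.34 and 1.35 in KOA and 1.25, 1.24, 1.22 and 1.21 in KOB, against 1.32, 1.31, 1.31 and 1.32 in WT. KOB was below WT in 4 of 4 libraries, and KOA lay on both sides of WT. In 6419c5 the ratio was 1.37, 1.37 and 1.40 in KOA and 1.40, 1.46 and 1.44 in KOB, against 1.48 to 1.54 in WT. All 6 KO libraries there were below the lowest WT library. The libraries of high Mir6236 had the lowest ratio of 6694c2 KOB and the highest of 6419c5 WT. No test was made of this ratio.

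**Figure D1:**
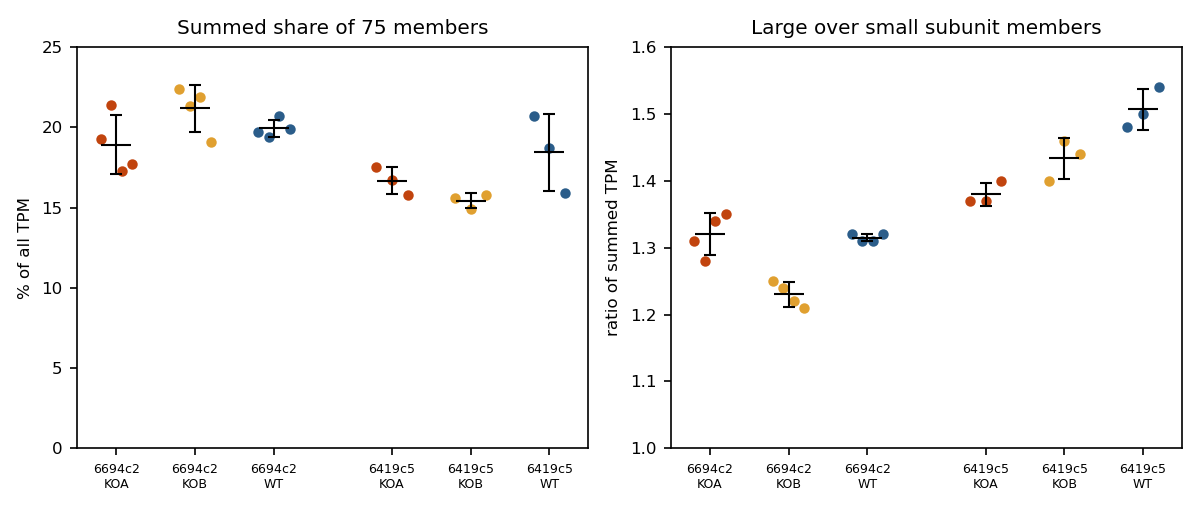
Left, the summed TPM of the 75 members as a percentage of all TPM; right, the ratio of summed TPM of large over small subunit members (axis from 1), for every library of the 6 lines. Points are libraries, and the line and bar are the mean and SD (n = 4 in each line of 6694c2, n = 3 in each line of 6419c5); the share overlaps between most lines, while the ratio is 1.21 to 1.25 in 6694c2 KOB and 1.48 to 1.54 in 6419c5 WT.

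Single genes were tested with limma, fitted to all 14337 genes that reached 1 TPM in 3 or more libraries, and called at a Benjamini-Hochberg adjusted p under 0.05. On log2(TPM + 1) of the deposited values, called the TPM scale, 1 member was called higher and 12 lower in 6694c2 KOA than in WT, where 15.2% of all genes tested were called higher and 7.56% lower. In 6694c2 KOB 18 were higher and 7 lower, against 29.2% and 19.4% of all genes. In 6419c5 KOA 4 were higher and 20 lower, against 19.1% and 12.7%. In 6419c5 KOB 3 were higher and 41 lower, against 28.5% and 14.7%. The members' median log2 fold changes were −0.05, 0.07, −0.12 and −0.28 in this order of lines, where the medians of all genes tested were 0.08, 0.07, 0.04 and 0.10. The count of 20 lower in 6419c5 KOA depended on single libraries: it was 9 without WT library 1, 31 without WT library 3, 13 without KOA library 2 and 10 without KOA library 3. The count of 12 lower in 6694c2 KOA was 20 without KOA library 2 and 7 without KOA library 4. With median-of-ratios size factors the counts higher and lower were 0 and 16 in 6694c2 KOA, 6 and 8 in 6694c2 KOB, 1 and 14 in 6419c5 KOA and 1 and 45 in 6419c5 KOB. With quantile normalization they were 13 and 19, 24 and 8, 6 and 33, and 9 and 44 in the same order. The share of all genes called in these alternative fits is not given here. These counts therefore do not show whether the members moved apart from other genes.

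To describe single genes apart from the sum, each library was rescaled so that its 75 members summed to the same total. The log2 difference between lines on this scale is called the departure of a member, and the values rescaled TPM. On this scale the median of all genes tested was 0.14 in 6694c2 KOA, −0.00 in 6694c2 KOB, 0.16 in 6419c5 KOA and 0.32 in 6419c5 KOB, so departures are relative to the other members and not to all genes. Within a line the members had a standard deviation between libraries of 0.03 to 0.28 (log2, median 0.07). The rescaling takes out the variation between libraries that the members share, and no value for other genes is given here. Between the 6 line means the range per member was 0.09 (Rps10) to 1.35 (Rpl35a), with a median of 0.49, and it was 0.5 or more for 37 of the 75.

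Of the 75 members, 17 departed upwards and 12 downwards in 6694c2 KOA, where 13.8% and 3.61% of all genes were called higher and lower on this scale. The counts were 16 and 21 in 6694c2 KOB (all genes 20.0% and 19.0%), 9 and 13 in 6419c5 KOA (22.5% and 6.05%), and 21 and 23 in 6419c5 KOB (40.6% and 6.51%). Departures ran from −0.50 to 0.37 in 6694c2 KOA, −0.53 to 0.51 in 6694c2 KOB, −0.98 to 0.68 in 6419c5 KOA and −0.83 to 0.71 in 6419c5 KOB. Taking the mean of both KO lines against WT, 15 members departed upwards and 19 downwards in 6694c2 (all genes 18.0% and 9.83%), and 19 and 17 in 6419c5 (36.4% and 6.97%). With each line as a random effect in limma, 0 were called in 6694c2 (6 higher and 6 lower at an unadjusted p under 0.05). Of all 14337 genes, 101 were called higher and 37 lower there. In 6419c5 3 members were called higher and 5 lower, and 943 and 123 of all genes. This fit used 1 within-line correlation for all genes (0.484) and kept 17 residual degrees of freedom for 6 lines. Its p values therefore do not measure each gene's own spread between lines. In the fit of line means, the KO effect (mean of both KO lines less WT) differed between the clones for 22 members. It was higher in 6694c2 for 12 and lower for 10 (all genes 5.45% and 20.4%). The members Rpl13a, Rpl21, Rpl26, Rpl29, Rpl3, Rpl30, Rpl4, Rplp1, Rps10 and Rps23 were called in none of the 4 lines on this scale, each read on its own row. For Rpl26 and Rpl30 most of the signal lay in a near-identical row, and with that row added both were called lower in some lines, as given at the end.

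Departures went with the chromosome that carries the gene. For each member, the departure was set beside the median change of the genes on its chromosome that are not members. Across the 75 members Pearson's r was 0.80 in 6694c2 KOA, 0.83 in 6694c2 KOB, 0.66 in 6419c5 KOA and 0.47 in 6419c5 KOB, with Spearman's rho of 0.77, 0.74, 0.62 and 0.46. Members of 1 chromosome share a median, and both KO lines of a clone are set against the same WT. These values describe and carry no p. Coding length and its GC content, set beside the departures in the same way, gave r between −0.10 and 0.20. DNA copy number was not analysed here, and the cause of the chromosome medians was not tested.

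**Figure D2:**
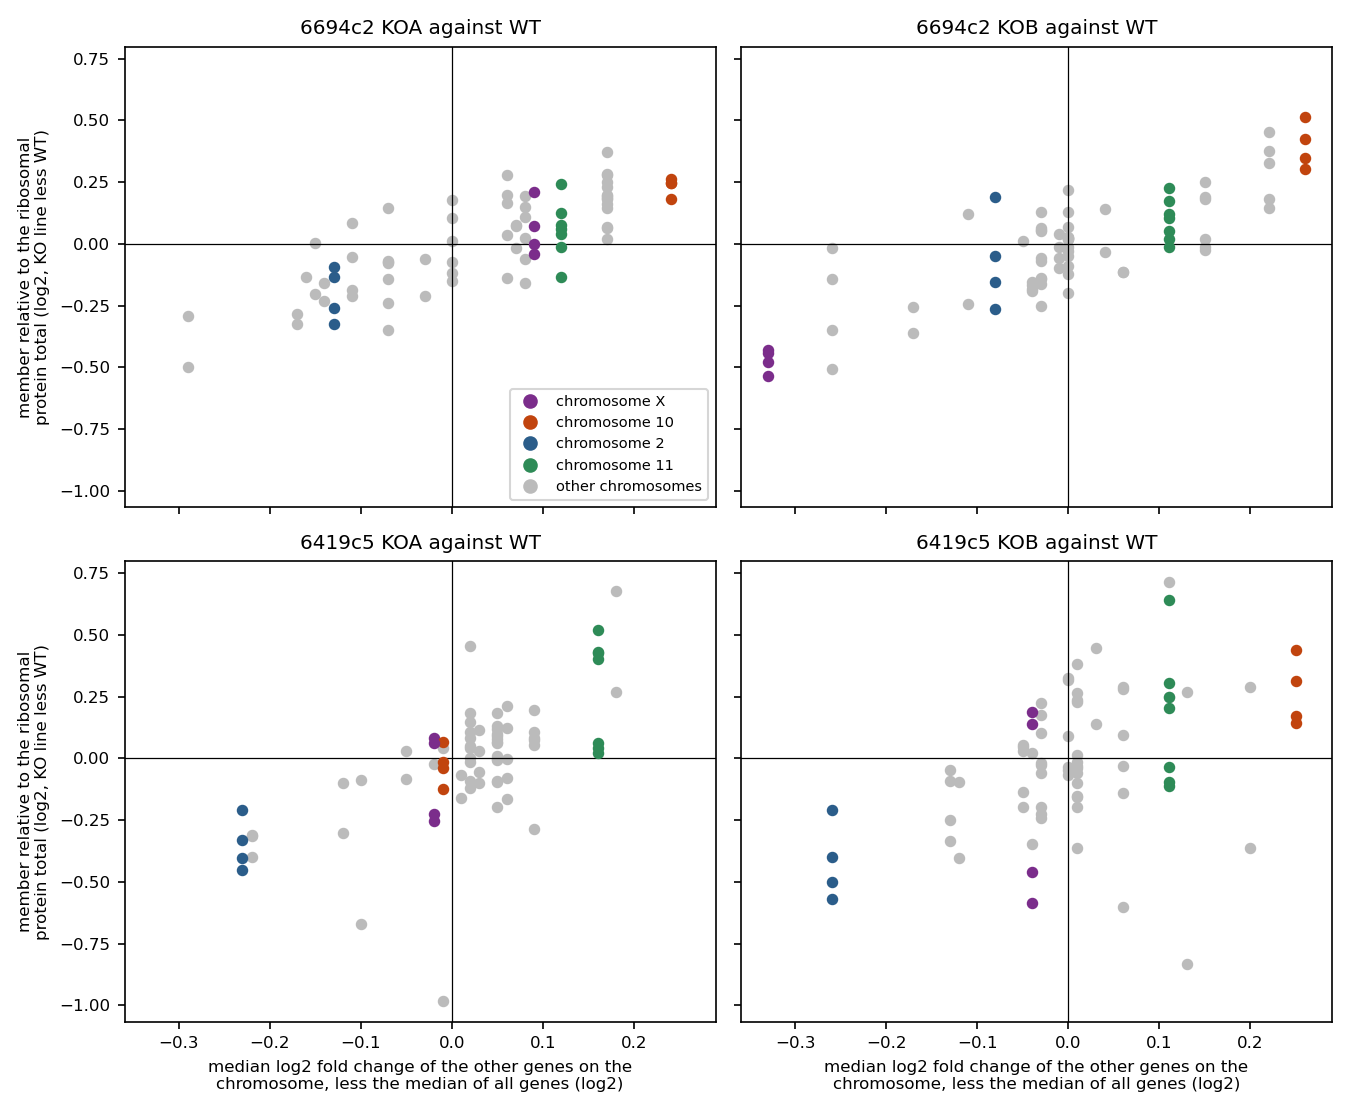
Each point is 1 of the 75 members: its departure (log2, KO line less WT, relative to the ribosomal protein total) against the median log2 fold change of the other genes on its chromosome less the median of all genes. Points in a column share a chromosome; in 6694c2 KOB the 4 members on chromosome X lie at −0.53 to −0.43 on the far left and the 4 on chromosome 10 at 0.30 to 0.51 on the far right, and in 6419c5 KOA Rpl35a lies far below its column at −0.98.

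Chromosome X carries 4 members, Rps4x and Rpl10 among them. RPS4X belongs to the small subunit, and RPL10, RPL36A and RPL39 belong to the large subunit, with RPL10 joining the subunit late in its maturation in the cytoplasm. Rps4x (chromosome X, 102184941 to 102189391) had 1115, 1103, 1108 and 1010 rescaled TPM in 6694c2 KOB, against 1545, 1593, 1516 and 1623 in WT. The groups did not overlap, and the departure was −0.53 ± 0.05 (SE, limma adjusted p 1.66e-07). Rpl10 had 1711, 1718, 1711 and 1614 rescaled TPM in KOB, against 2204, 2270, 2231 and 2406 in WT (−0.43 ± 0.04, limma adjusted p 3.78e-07). Rpl39 and Rpl36a departed by −0.48 and −0.44, and their KOB libraries, 1554 to 1823 and 1193 to 1283 rescaled TPM, were below all WT libraries, 2240 to 2415 and 1646 to 1741.

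On the deposited TPM scale the same 4 members fell in 6694c2 KOB by 0.35 to 0.45, each called. The other 424 genes tested on chromosome X had a median of −0.27 there, with 41.3% called lower and 8.73% higher. In 6694c2 KOA, on the same scale, the median of the other X-linked genes was 0.17, and Rps4x had 1731, 1797, 1564 and 1602 TPM, around the WT values of 1631, 1654, 1681 and 1735. The KO lines of this clone differed directly: Rps4x was 0.61 ± 0.05 and Rpl10 0.64 ± 0.04 higher in KOA than in KOB by departure (limma adjusted p 4.95e-08 and 5.17e-09). Between KOA and KOB of 6694c2, 23 members departed upwards and 15 downwards, where 26.8% and 13.0% of all genes were called.

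In 6419c5 the X-linked members split into pairs. Rpl39 departed by −0.23 in KOA (limma adjusted p 0.0297) and −0.46 in KOB (7.40e-05), and Rpl36a by −0.25 (0.00832) and −0.58 (1.96e-06). Rps4x departed by 0.06 in KOA and 0.14 in KOB, neither called, and Rpl10 by 0.08, not called, and 0.19 (0.00555). The other X-linked genes had medians of 0.02 and 0.07 there on the TPM scale. The KO effect of Rps4x, the mean of both KO lines less WT, differed between the clones by −0.33 (6694c2 less 6419c5, limma adjusted p 0.00145) and that of Rpl10 by −0.25 (0.00455).

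Chromosome 10 carries Rps12, Rps15, Rps26 and Rpl41, 3 proteins of the small subunit and the smallest protein of the large one. Rps12 had 4621, 4426, 4376 and 4753 rescaled TPM in 6694c2 KOB and 3771, 3735, 3967 and 3623 in KOA, against 3234, 2970, 3290 and 3240 in WT. Every KO library was above every WT library, with departures of 0.51 ± 0.06 in KOB and 0.25 ± 0.06 in KOA (limma adjusted p 2.58e-06 and 0.0102). Rps15 departed by 0.42 in KOB and 0.25 in KOA, and Rpl41 by 0.30 and 0.26, all called. Rps26 departed by 0.35 in KOB, called, and by 0.18 in KOA (limma adjusted p 0.0537).

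The other 666 genes tested on chromosome 10 had a median of 0.32 on the TPM scale in both KO lines of 6694c2, with 50.9% called higher in KOB and 47.0% in KOA. On that scale the 4 members rose by 0.39 to 0.60 in KOB, each called, and stood at 0.10 to 0.19 in KOA, none called. In 6419c5 the members of chromosome 10 departed upwards in KOB, by 0.31 for Rps12, 0.44 for Rps15 and 0.17 for Rpl41, each called, and by 0.14 for Rps26, not called. On the TPM scale only Rps15 was called in that line, at 0.19 (limma adjusted p 0.0493), and the other 3 lay between −0.10 and 0.07. In 6419c5 KOA none of the 4 was called on either scale. The chromosome's other genes had a median of 0.36 in 6419c5 KOB and 0.03 in KOA on the TPM scale, where the 4 members had medians of −0.00 and −0.16.

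Chromosome 2 carries Rpl35, Rpl12, Rpl7a and Rps21, and chromosome 1 carries Rpl7, Rpl31 and Rpl37a. In 6419c5 the 4 members of chromosome 2 departed downwards in both lines, by −0.21 to −0.45 in KOA and −0.21 to −0.57 in KOB, all called. The other 1099 genes of chromosome 2 had medians of −0.19 in KOA and −0.16 in KOB on the TPM scale. The 3 members of chromosome 1 departed by −0.31 to −0.40 in KOA, all called, and by −0.05 to −0.33 in KOB, where Rpl31 was not called. The other 833 genes of chromosome 1 had medians of −0.18 and −0.03.

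On chromosome 11, Rpl19, Rpl27, Rpl38 and Rpl23 departed upwards in both lines of 6419c5, while Rps27a and Rpl23a were called in neither. Rpl26 was called in neither on its own row, and with its near-identical row added it departed by −0.16 in KOA and −0.28 in KOB (limma adjusted p 0.0459 and 4.85e-04). Rpl19 had 2783, 2940 and 2804 rescaled TPM in KOA and 2984, 3189 and 3100 in KOB, against 1894, 2004 and 2046 in WT. The departures were 0.52 ± 0.05 and 0.64 ± 0.05 (limma adjusted p 6.71e-07 and 3.74e-08). On the TPM scale Rpl19 rose in both lines, by 0.38 and 0.40. Rpl27 and Rpl23 rose in KOA, by 0.29 and 0.26, and Rpl38 was at 0.29 (limma adjusted p 0.0596), while in KOB these 3 lay between −0.04 and 0.06 and were not called. Rps27a, Rpl26 and Rpl23a stand before Rpl23, Rpl19, Rpl27 and Rpl38 along the chromosome, from 29545842 for Rps27a to 114667818 for Rpl38 in start position on GRCm38.p6.

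In 6694c2 KOA the lowest departure was that of Rps24, a small subunit protein on chromosome 14, at −0.50 ± 0.05 (limma adjusted p 3.94e-06). It had 1209, 1407, 1145 and 1083 TPM in KOA, against 1760, 1691, 1918 and 1829 in WT. Rpl15, the other member on that chromosome, departed by −0.29 (1.41e-04), and the other 483 genes of chromosome 14 had a median of −0.21 on the TPM scale with 33.7% called lower. The highest departure in this line was Rpl18 on chromosome 7, at 0.37 ± 0.07 (0.00175), and Rpl27a of the same chromosome and Rpl22 of chromosome 4 departed by 0.28 each. Chromosome 7 carries 14 of the members, of which 9 departed upwards and none downwards. On the TPM scale these 14 had a median of 0.11, between −0.06 and 0.30, and only Rpl18 of them was called (0.30, limma adjusted p 0.00686). On that scale the chromosome's other 1074 genes had a median of 0.24, with 31.8% called higher and 2.05% lower.

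**Figure D3:**
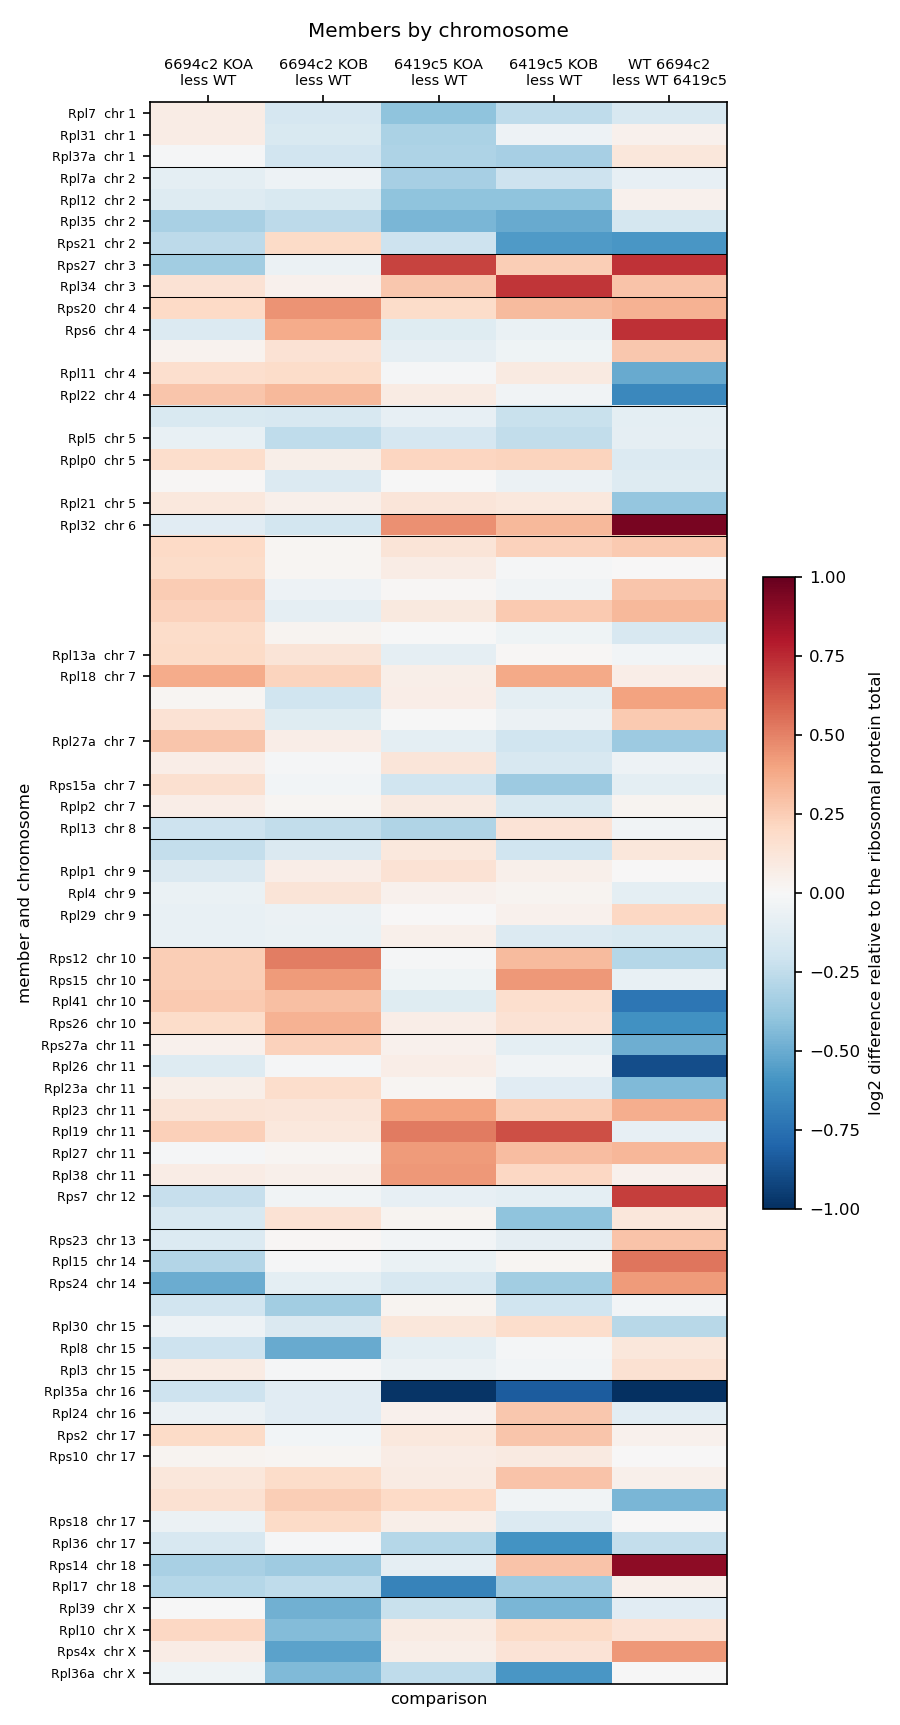
Departures of 73 of the 75 members (log2, relative to the ribosomal protein total; red higher, blue lower, the colour ends at 1 in each direction), ordered by chromosome and position with names on 56 rows, for each KO line less its WT and for WT of 6694c2 less WT of 6419c5. Blocks of 1 colour run along chromosomes X and 10 in 6694c2 KOB and along chromosomes 1 and 2 in 6419c5 KOA, while Rpl35a is dark blue in 3 columns.

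Few members went one way in all lines. Rps20 departed upwards in all 4, and Rpl17 and Rpl35 downwards in all 4. The share of all genes called alike in all 4 lines is not given here on either scale. Both KO lines of a clone are set against the same WT, so the 4 comparisons are not independent. RPL17 and RPL35 line the exit of the tunnel through which the new chain leaves the large subunit, and RPS20 sits in the head of the small one. Rpl35 had 2781, 2955, 2822 and 2929 rescaled TPM in KOA and 3092, 2936, 3021 and 2933 in KOB, against 3699, 3526, 3541 and 3602 in WT of 6694c2. In 6419c5 it had 3051, 3040 and 2820 in KOA and 2754, 2896 and 2968 in KOB, against 4049, 4133 and 4016 in WT. No KO library reached a WT library of its clone, and the departures were −0.32 and −0.26 in 6694c2 and −0.45 and −0.50 in 6419c5 (limma adjusted p 2.51e-05, 5.49e-05, 1.24e-06 and 2.32e-07).

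Rpl17 departed by −0.28 and −0.25 in KOA and KOB of 6694c2 and by −0.67 and −0.36 in KOA and KOB of 6419c5 (limma adjusted p 1.84e-04, 1.37e-04, 2.95e-08 and 1.50e-05). It had 1543, 1448 and 1496 rescaled TPM in KOA and 1771, 1889 and 1898 in KOB, against 2379, 2438 and 2331 in WT of 6419c5. Its KO effect differed between the clones by 0.25, being lower in 6419c5. Rps20 had 307, 288, 294 and 291 rescaled TPM in KOA and 339, 352, 352 and 364 in KOB, against 250, 267, 257 and 255 in WT of 6694c2. In 6419c5 it had 221, 229 and 236 in KOA and 249, 270 and 236 in KOB, against 216, 198 and 192 in WT. No KO library was as low as a WT library of its clone. Rps20 departed by 0.20, 0.45, 0.18 and 0.32 in the same order of lines (limma adjusted p 0.0191, 3.31e-06, 0.0398 and 5.63e-04).

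On the deposited TPM scale these 3 were called in fewer lines. Rps20 was called in 6694c2 KOB (0.54 ± 0.09, limma adjusted p 5.06e-05) and not in the others, where it changed by 0.12, 0.05 and 0.07. Rpl17 and Rpl35 were not called in 6694c2 KOB (−0.17 and −0.18, limma adjusted p 0.147 and 0.133). The member called lower in all 4 lines on the TPM scale was Rpl8, a core protein of the large subunit next to the peptidyl transferase centre. It had 2891, 3063, 2660 and 2768 TPM in KOA and 2698, 2663, 2751 and 2289 in KOB, against 3495, 3373, 3539 and 3466 in WT of 6694c2. In 6419c5 it had 2439, 2656 and 2431 TPM in KOA and 2402, 2278 and 2722 in KOB, against 3273, 2828 and 2787 in WT. All KO libraries were below the WT libraries of their clone, though the gap in 6419c5 was narrow. It changed by −0.29, −0.42, −0.24 and −0.26 in the order of lines (limma adjusted p 0.00967, 1.35e-04, 0.0429 and 0.0194). By departure Rpl8 was called lower in KOA and KOB of 6694c2 only (−0.21 and −0.51, limma adjusted p 0.0133 and 8.28e-07). In KOA and KOB of 6419c5 it departed by −0.10 and −0.02 (0.274 and 0.834), so no fall relative to the other members was called there.

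The member whose line means ranged furthest was Rpl35a, a protein of the large subunit on chromosome 16 (33056453 to 33060189). In 6419c5 it had 2520, 2095 and 2166 TPM in KOA and 2362, 2264 and 2327 in KOB, against 5364, 5040 and 4341 in WT. The KO means were 0.46 and 0.47 of the WT mean, with log2 fold changes of −1.12 ± 0.10 and −1.08 ± 0.10 on the TPM scale (limma adjusted p 1.32e-07 and 1.44e-07). In 6694c2 it had 1955, 2307, 1862 and 1849 TPM in KOA and 2634, 2302, 2377 and 2216 in KOB, against 2458, 2380, 2540 and 2318 in WT. The KO lines of both clones and WT of 6694c2 thus lay between 1849 and 2634 TPM, and the 3 WT libraries of 6419c5 alone above 4300. The KO effect by departure differed between the clones by 0.75 (limma adjusted p 2.45e-07). The rest of chromosome 16 did not show this: its other genes had medians of 0.04 in KOA and 0.23 in KOB of 6419c5, and Rpl24, the other member there, departed by 0.04 and 0.27.

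**Figure D4:**
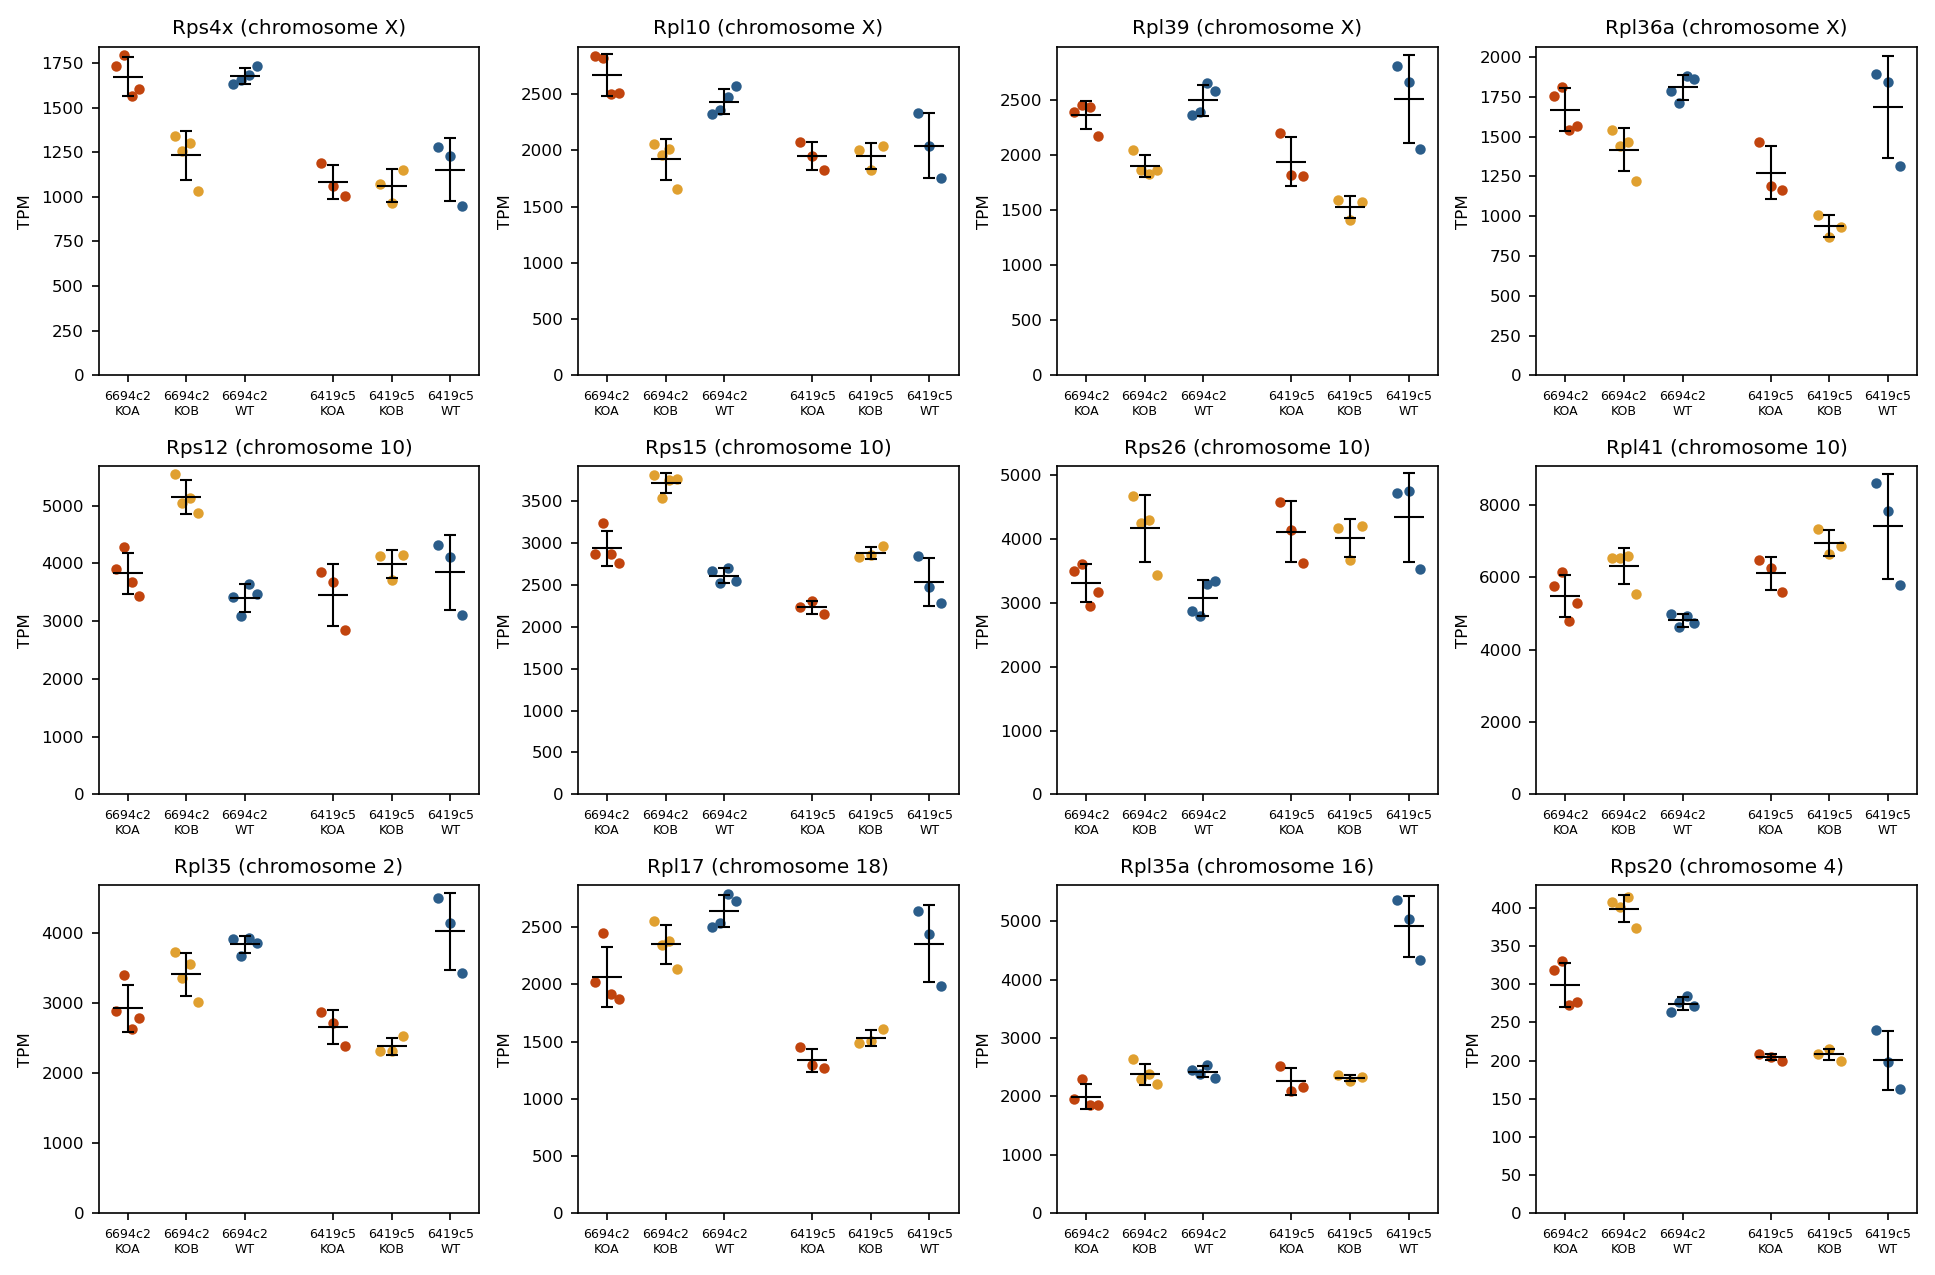
TPM as deposited of 12 members in every library: the 4 on chromosome X (top), the 4 on chromosome 10 (middle), and Rpl35, Rpl17, Rpl35a and Rps20 (bottom). Points are libraries, and the line and bar are the mean and SD (n = 4 in 6694c2, n = 3 in 6419c5); Rpl35a is above 4300 TPM in WT of 6419c5 and at most 2634 in every other library.

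In 6419c5 KOB, Rpl36 of the large subunit departed by −0.60 ± 0.06 (limma adjusted p 5.35e-07), with 2493, 2444 and 2640 TPM in KOB, against 5082, 4551 and 4047 in WT. In the same line Rps21 departed by −0.57 (limma adjusted p 2.70e-06). Rpl13 on chromosome 8 differed between the KO lines of 6419c5, lower in KOA than in KOB by 0.44 (3.60e-04). Rpl32 departed upwards in both KO lines of 6419c5, by 0.46 and 0.33 (1.22e-05 and 2.14e-04).

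The members with known roles off the ribosome did not share a direction. Rps6 departed by 0.37 in 6694c2 KOB (limma adjusted p 9.58e-05) and was not called in the other 3 lines. Rpl5 departed by −0.25 in 6694c2 KOB and −0.24 in 6419c5 KOB (0.00176 and 0.00598), and Rpl11 by 0.17 and 0.18 in KOA and KOB of 6694c2 (0.0431 and 0.0128). Rplp0, often used as a reference gene, departed by 0.21 and 0.22 in 6419c5 (0.0316 and 0.0151), and on the TPM scale it was called in no KO line. Rps27a departed by 0.23 in 6694c2 KOB (9.49e-04).

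Rpl22 is dispensable for translation in mice, and there it is known to restrain its paralog Rpl22l1. In 6694c2 Rpl22 had 235, 239, 226 and 203 TPM in KOA and 276, 257, 262 and 252 in KOB, against 180, 194, 211 and 200 in WT. It changed by 0.20, not called, and 0.41, called, on the TPM scale, and departed by 0.28 and 0.33 (limma adjusted p 0.00714 and 6.08e-04). Rpl22l1 had 257, 381, 294 and 273 TPM in KOA and 311, 266, 311 and 285 in KOB, against 547, 463, 443 and 487 in WT. It fell by 0.70 and 0.72 on the TPM scale (8.47e-04 and 1.54e-04). In 6419c5 Rpl22 was lower on the TPM scale in KOB by 0.28, called, and Rpl22l1 by 0.44 (0.0242), so there both were lower in that line. By departure Rpl22 stood at −0.03 there (limma adjusted p 0.739), so it did not fall relative to the other members.

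The parental lines of the 2 clones also differed from each other. WT of 6694c2 less WT of 6419c5 gave 22 members departing upwards and 19 downwards, where 14.1% and 34.1% of all genes were called on that scale. On the TPM scale the counts were 25 and 12, where 21.5% and 32.0% of all genes were called. Rpl32 had 6005, 5973, 6205 and 6291 rescaled TPM in 6694c2 WT, against 3037, 3500 and 2975 in 6419c5 WT (0.95 ± 0.06, limma adjusted p 2.00e-10). Rps14 departed by 0.89 and Rps6 by 0.73, and Rps7 by 0.69 (3.96e-10, 1.10e-07 and 2.45e-09). Rpl35a departed by −1.14, Rpl41 by −0.72, Rpl22 by −0.64 and Rps26 by −0.61 (7.60e-12, 4.69e-09, 9.35e-07 and 9.30e-07).

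Of the small subunit members 15 departed upwards and 6 downwards between the WT lines, and of the large subunit members 7 and 13, beside 14.1% and 34.1% of all genes. Rps27 and Rpl34 are among those counted upwards on their own rows, and with their near-identical rows added they stood at −0.02 (limma adjusted p 0.874) and −0.29 (0.00446). The chromosome medians of other genes followed these departures with Pearson's r of 0.50 over the 75 members.

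Other genes of the translation machinery were read beside the members on the TPM scale. There the calls over all genes came to 15.2% higher and 7.56% lower in 6694c2 KOA, 29.2% and 19.4% in 6694c2 KOB, 19.1% and 12.7% in 6419c5 KOA, and 28.5% and 14.7% in 6419c5 KOB. Of the ribosomal proteins outside the pattern, Rps3a1 fell by 0.32 in 6694c2 KOA and by 0.25 in 6419c5 KOB, and Rpl36al rose by 0.34 in 6694c2 KOB. Rpsa and Fau were called in none of the 4 KO lines, with log2 fold changes of −0.21 to 0.17. Of 18 translation factors and other messages with a pyrimidine tract, 4 were higher and 2 lower in 6694c2 KOA, 2 and 3 in 6694c2 KOB, 0 and 2 in 6419c5 KOA, and 1 and 7 (5.56% and 38.9%) in 6419c5 KOB. Eef2, the elongation factor that moves the ribosome along the message, had 2301, 2353 and 2551 TPM in 6419c5 KOB, against 1749 to 2010 TPM in WT, and rose by 0.37 (limma adjusted p 0.00313).

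The 45 genes of ribosome biogenesis gave 23 calls higher and 2 lower (51.1% and 4.44%) in 6694c2 KOB, with a median of 0.20, while all genes tested had a median of 0.07. They gave 5 and 4 in 6694c2 KOA, 2 and 8 in 6419c5 KOA and 8 and 10 (17.8% and 22.2%) in 6419c5 KOB. Polr1c, a subunit of RNA polymerases I and III, rose by 0.61 in 6694c2 KOB (9.88e-07), and Ncl, which encodes nucleolin, fell by 0.55 and 0.84 in KOA and KOB of 6419c5 (2.63e-04 and 2.08e-06). Of 78 mitochondrial ribosomal proteins, 50 were called higher and 1 lower in 6694c2 KOB (64.1% and 1.28%, median 0.27) and 12 and 6 in 6694c2 KOA (15.4% and 7.69%). The counts were 23 and 8 in 6419c5 KOA (29.5% and 10.3%) and 30 and 6 in 6419c5 KOB (38.5% and 7.69%, median 0.11). In 6419c5 KOB the median of the cytoplasmic members was −0.28 on the same scale.

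Of 15 regulators of ribosomal protein synthesis, 5 were higher and 2 lower in 6694c2 KOB (33.3% and 13.3%) and 6 and 1 in 6419c5 KOB (40.0% and 6.67%), and 3 and 0 and 3 and 2 in the KOA lines of 6694c2 and 6419c5. Mtor rose by 0.60, 0.37 and 0.31 in 6694c2 KOB, 6419c5 KOA and 6419c5 KOB (2.60e-05, 0.0113 and 0.0238). Eif4ebp2, a repressor of translation initiation, rose by 0.41 and 0.61 in 6694c2 KOA and KOB and by 0.83 in 6419c5 KOB (0.0233, 5.29e-04 and 1.57e-04). Myc rose by 0.72 in 6419c5 KOB (2.44e-04) and was called in none of the other 3 lines.

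Several members share nearly all of their coding sequence with another row, and for 4 of them that row held a large share of the signal. Rps27 encodes a zinc-binding protein of the small subunit, and Rps27rt is a separate gene on chromosome 9 whose coding sequence is the same over all 255 bases in GENCODE M21. The sequence is shown because reads within it cannot tell the 2 genes apart.
Rps27 (chr3:90212522-90213651, minus strand) and Rps27rt (chr9:114982366-114982739, minus strand): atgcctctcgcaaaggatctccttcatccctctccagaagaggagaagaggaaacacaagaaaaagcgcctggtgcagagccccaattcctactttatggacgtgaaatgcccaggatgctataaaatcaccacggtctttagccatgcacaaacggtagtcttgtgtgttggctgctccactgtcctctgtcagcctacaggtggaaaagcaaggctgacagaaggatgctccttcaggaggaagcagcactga

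The row Rps27rt had 2837, 855 and 1993 TPM in 6419c5 KOA and 15.2, 0.00407 and 1.64 in KOB, against 2090, 4412 and 3176 in WT. Rps27 had 6951, 6807 and 5686 TPM in KOA and 4949, 4208 and 4244 in KOB, against 7009, 4709 and 2664 in WT. The copy held 54.4% of the sum in 1 WT library and at most 0.307% in the KOB libraries of that clone. With the rows added together, the departure of Rps27 in 6419c5 KOA was 0.24 (limma adjusted p 0.125), against 0.68 (0.00475) for the row alone. In 6419c5 KOB the sum departed by −0.52 (8.25e-04), against 0.25 (0.233) alone. Between the WT lines it departed by −0.02 (0.874), against 0.72 (9.57e-04) alone, so the high Rps27 of 6694c2 WT was not seen in the sum. In 6694c2 KOA the sum departed by −0.37 (0.0113), against −0.35 (0.107) alone, and in 6694c2 KOB by 0.02 (0.910), against −0.06 (0.791). Rps27rt had 2542, 125, 78.5 and 4.55 TPM in 6694c2 KOB, up to 24.7% of the sum.

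Rpl34 is a protein of the large subunit, and Rpl34-ps1 is annotated as a processed pseudogene on chromosome 6. Their coding stretches of 354 bases differ at 2 positions, in capitals, and bases 117 to 333 are shown.
Rpl34, chr3:130726831-130730398, minus strand: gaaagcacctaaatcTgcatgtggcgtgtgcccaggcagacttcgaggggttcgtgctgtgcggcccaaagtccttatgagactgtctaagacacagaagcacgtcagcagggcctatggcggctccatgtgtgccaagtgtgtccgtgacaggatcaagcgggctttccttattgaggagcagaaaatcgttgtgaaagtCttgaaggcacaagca
Rpl34-ps1, chr6:71124610-71124963, plus strand: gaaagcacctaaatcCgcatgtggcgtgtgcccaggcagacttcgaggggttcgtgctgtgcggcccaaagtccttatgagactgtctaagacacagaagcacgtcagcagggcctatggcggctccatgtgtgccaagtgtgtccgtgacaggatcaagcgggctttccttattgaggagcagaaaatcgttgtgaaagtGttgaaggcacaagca

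The pseudogene row had the higher level in nearly all libraries. Rpl34-ps1 had 4273, 3250 and 2599 TPM in 6419c5 KOA and 1703, 1465 and 1227 in KOB, against 4107, 4421 and 3262 in WT. Rpl34 had 851, 963 and 1000 TPM in KOA and 1068, 1123 and 1378 in KOB, against 954, 813 and 806 in WT. Rpl34 alone departed upwards in KOB by 0.71 (limma adjusted p 4.33e-05), and the sum of the rows departed downwards by 0.55 (2.82e-05). In 6694c2 the sum departed by −0.25 in KOA (0.0210) and −0.13 in KOB (0.150).

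Rpl26 and Rpl30 show the same division with a larger share in the copy. The row Gm15772, whose coding stretch is 99.5% identical to that of Rpl26, averaged 2141 TPM over all libraries, and Rpl26 averaged 151. The row Gm12191, 99.7% identical to Rpl30, averaged 3029 TPM, and Rpl30 averaged 145. With Gm15772 added, the departure of Rpl26 between the WT lines was −0.23 (limma adjusted p 0.00149), against −0.89 (0.00118) for the row alone. In the KO lines its summed departure was −0.01 and 0.05 in 6694c2 KOA and KOB, neither called, and −0.16 and −0.28 in 6419c5 KOA and KOB, both called. With Gm12191 added, Rpl30 departed by −0.22, −0.30 and −0.23 in 6694c2 KOA, 6694c2 KOB and 6419c5 KOB (limma adjusted p 0.0169, 7.01e-04 and 0.00987), by −0.05 in 6419c5 KOA, not called, and by −0.20 between the WT lines (0.0184). The levels and changes of these 4 members are therefore uncertain in these data, and the split of their reads between rows was not tested. Of the other members, 11 had a copy at this similarity, and only Rpl21 (4.08%) had one above 2% of its own mean level.

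**Figure D5:**
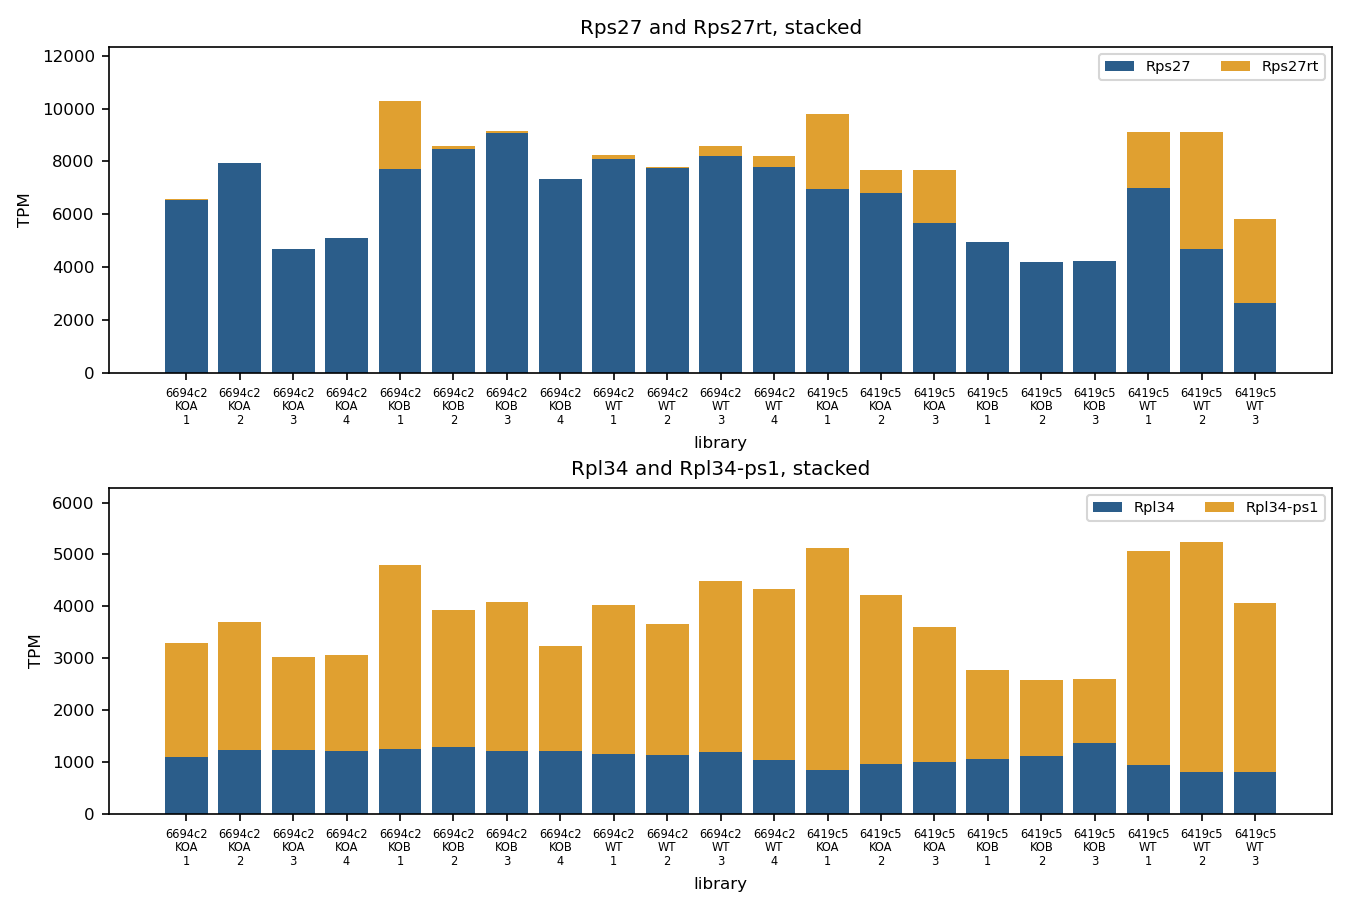
TPM of Rps27 with Rps27rt (top) and of Rpl34 with Rpl34-ps1 (bottom) stacked for each of the 21 libraries, in the order KOA, KOB and WT of each clone. The copy adds 2090 to 4412 TPM to Rps27 in WT of 6419c5 and at most 15.2 in KOB of that clone, and Rpl34-ps1 is the larger part of its bar in all but 1 library.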

How the data were processed

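RNA sequencing of 21 libraries of sorted mouse tumour cells gave 1 table of TPM per gene symbol. The authors made the deposited TPM with Salmon and the build mm10, per the submitters' processing notes; the version of Salmon, the transcript annotation and the step to gene symbols are not given in the sources used here. TPM keeps no read counts, so the depth is unknown, no counting interval was given, and precision rests on the spread between libraries, which may be technical because the labels name no separate animals. The table letters the KO lines and the sample titles number them, so columns were placed in groups only.

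Values were taken as log2(TPM + 1), and the 14337 genes that reached 1 TPM in 3 or more libraries entered the test. Limma 3.58.1 in R 4.3.3 was fitted with a mean for each of the 6 lines over 21 libraries (15 residual degrees of freedom, eBayes with trend, two-sided, Benjamini-Hochberg over all genes tested), on deposited TPM and after rescaling each library to 1 ribosomal protein total. The procedure was tested on simulated data. Fold changes are KO line less WT on the log2(TPM + 1) scale, with SE from limma; other errors are SDs.

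Positions came from RefSeq for all 75 members and 14304 of the genes tested. Near-identical rows were found with BLAST 2.17.0 of the members' longest reading frames against GENCODE M21 transcripts (at least 95% identity over at least 80% of the frame). Named members had the 5 highest or 5 lowest departures per comparison, the 5 highest or lowest levels, or the same call in all 4 KO lines, with 6 of known further roles; members named for their chromosome or for a copy were chosen after their values were seen. The members, lists and tests were chosen with earlier results of these data known. Python 3.11.15 (scipy 1.17.1, pandas 2.3.3, matplotlib 3.10.9, numpy 2.4.6) and statmod 1.5.0 were also used. Library numbers of a clone did not pair the lines (correlation of same-numbered deviations −0.147 to 0.173). Alternatives were another pseudocount, no filter, other scalings, eBayes without trend, a replicate block, lines as random effects, leaving out libraries, and adding copies to their member, the last chosen after seeing the data. A few genes are not reported here by name.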

Additional observations from a re-analysis of the deposited data

Results flagged for a closer look

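In 6 members the lowest of the 4 libraries of 6694c2 KOB stood far from the other 3. It was library 4 each time, the library in which Mir6236 took 14.5% of all TPM: Rpl32 had 5154 TPM there, Rpl41 5552, Rplp0 2889, Rps2 5325, Rps6 1998 and Rps7 1942. The summed share of the members was 19.1% in that library and 21.3 to 22.4% in the other 3, and without Mir6236 in the total it was 22.4%, within the 21.8 to 23.0% of the others. In 6694c2 WT the highest library of Rpl30, at 193 TPM, stood far from the other 3 (122 to 131 TPM). Of 135 groups of 4 libraries examined, 7 were marked in this way, and chance marks about 1 in 20.

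The KO effect relative to the ribosomal protein total differed between the clones for 22 of the 75 members, 12 higher and 10 lower, by limma's test of the difference (6694c2 less 6419c5, adjusted p under 0.05). Of all genes tested, 5.45% were called higher and 20.4% lower. The 22 are counted over all 75 members. The named members listed here were chosen in part for extreme departures in these lines, so the list is not set against the share of all genes. It was higher in 6694c2 for Rpl35a (0.75), Rpl36 (0.36), Rps15a (0.35), Rps21 (0.35), Rpl27a (0.32), Rpl22 (0.28), Rpl7 (0.28), Rpl12 (0.26), Rpl41 (0.26), Rpl17 (0.25), Rps12 (0.23) and Rpl35 (0.19). It was lower in 6694c2 for Rps27 (−0.67), Rpl32 (−0.54), Rps14 (−0.44), Rpl19 (−0.41), Rpl34 (−0.40), Rpl27 (−0.36), Rps4x (−0.33), Rpl8 (−0.30) and Rpl10 (−0.25). Rpl24 (−0.24), which was not among the named members, was lower too. For Rps27 and Rpl34 a near-identical row holds part of the signal.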

How the results depend on the processing

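For the 24 summary values, 634 alternative values were computed and 27 moved, of which 12 came from leaving out 1 library. A count was said to move if it changed past 1.5 times. A difference in summed share was said to move if it shifted by the pooled SD of its lines or more. No share difference moved by that rule, though several changed past 1.5 times. Counts on the TPM scale moved most. In 6694c2 KOA the members called higher (1) numbered 0 with median-of-ratios size factors, 13 with quantile normalization, 3 after rescaling without Mir6236 and 7 without the libraries of high Mir6236, and those called lower (12) numbered 19 with quantile normalization. In 6694c2 KOB those higher (18) numbered 6 with median-of-ratios size factors. In 6419c5 KOA those higher (4) numbered 1 with median-of-ratios size factors, with rescaling without the members and without the libraries of high Mir6236, and those lower (20) numbered 33 with quantile normalization and 34 without the libraries of high Mir6236. In 6419c5 KOB those higher (3) numbered 1 with median-of-ratios size factors and 9 with quantile normalization, and between the WT lines those lower (12) numbered 5 with median-of-ratios size factors. Relative to the ribosomal protein total, 1 count moved: members higher in 6694c2 KOB (16) numbered 10 with eBayes without trend. The cause of these shifts was not tested, and the share of all genes called in these alternatives is not given here. Leaving out 1 library gave 1 to 6 members higher and 7 to 20 lower in 6694c2 KOA, and 1 to 6 higher and 9 to 31 lower in 6419c5 KOA, on the TPM scale. The 6 higher in 6694c2 KOA came without 6419c5 WT library 3, and the 3 without 6419c5 WT library 1; in 6419c5 KOA the 1 higher came without WT library 3 or KOA library 1. The differences in summed share kept their sign in every alternative, with the wider range in 6419c5, −3.03 to −0.631 in KOA and −4.24 to −1.84 in KOB. In 6694c2 the difference of −0.980 in KOA ranged from −1.80 to −0.442, and that of 1.26 in KOB from 0.847 to 1.95. Their sizes were thus less steady than their signs.

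Of 49 called departures of named members, 46 kept direction and call in every alternative run on them. The line as a random effect was fitted to the mean of both KO lines only, so no departure of a single line was refitted under it. The exceptions came with near-identical copies added: Rps27 in 6419c5 KOA lost its call (0.24), Rps27 between the WT lines turned to −0.02, and Rpl34 in 6419c5 KOB turned to −0.55. With library number as a replicate block, the members relative to the total numbered 14 higher and 11 lower in 6694c2 KOA, 16 and 18 in 6694c2 KOB, 7 and 12 in 6419c5 KOA and 20 and 21 in 6419c5 KOB, and no count moved past 1.5 times; WT against WT could not be fitted, since the blocks lie within clones. With the line as a random effect, the mean of both KO lines against WT gave 0 members called in 6694c2 on both scales, and in 6419c5 3 higher and 5 lower relative to the total and 0 higher and 2 lower on the TPM scale. Of all 14337 genes, 101 were higher and 37 lower in 6694c2 relative to the total, and 943 and 123 in 6419c5. On the TPM scale 83 and 47 were called in 6694c2, and 418 and 171 in 6419c5. With 1 WT line and 2 KO lines a clone, a call does not set the edit apart from other differences between lines. Depth is unknown, so low rows such as Rps15a cannot be given a counting error.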
